A study of Mus musculus with 2 samples.

Results

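Within about 5 Mb on either side of *Zbtb16*, the gene for Plzf (promyelocytic leukemia zinc finger) on mouse chromosome 9, the arrays carry probes for 204 other gene names, and the expression of these genes was compared between *Plzf* lu/lu and wild type embryonic brain. The genes were chosen by position alone, as those with a probe between 43.5 and 53.5 Mb in the deposited annotation (build mm9), without *Zbtb16* itself and without *Rps25*, *Atp5l*, *Ift46* and *Cep164*. They were read by 306 of the 56605 gene probes and make up 204 of the 37074 gene names. RNA came from forebrain and midbrain of embryos at E10.5. Wild type embryos were C57BL/6. The mutant strain is labelled luxoid, and its genetic background is not given in the sources used here. The luxoid allele arose spontaneously as a point mutation early in the coding sequence of *Plzf* and leads to a truncated protein, and lu/lu animals carry it on both chromosomes. Each of 2 arrays compared 1 wild type sample, labeled with Cy3, and 1 lu/lu sample, labeled with Cy5. The labels call the samples biological replicates, and how many embryos entered each sample is not given in the sources used here.

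Plzf is a zinc finger protein of the BTB family that represses transcription and is known from blood, limb, germ line and early neural development. A mutation that arose on one strain and is kept by breeding travels together with the chromosome stretch around it, so the genes beside the mutation can carry the sequence of the strain of origin in the mutant and not in the control. Such sequence can alter the level of a transcript, and it can also alter how well a transcript pairs with an array probe without any change of level. In these samples the luxoid allele and the sequence around it cannot be told apart.

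A probe reads only the bases it was designed for, and the ratios below turn on a small number of probes. Each is a stretch of 60 bases, and 30 of them are shown, in the order and on the strand of the deposited annotation. The first lines are probes of genes with ratios above 0 on both arrays, and capitals mark the longest stretch of alternating G and T where it reaches 10 bases.
Mcam, chr9:43950664-43950723, plus strand: ttgagGTGTGTGTGTGTGTGTGTGTataca
lincRNA, chr9:51910969-51911028, minus strand: gcagaGTGTGTGTGTGTtcaagactcaggg
Fdxacb1, chr9:50580777-50580836, plus strand: gtgttTGTGTGTGTGTGTaaaaaagttttg
Ncam1, chr9:49310320-49310379, minus strand: actttttactgagtgaaacatcaacaccac
Cul5, chr9:53422813-53422872, minus strand: ggtagcagtctgtatgcagtaggctgaaat
The next lines are probes of genes with ratios below 0, and none of them holds such a stretch.
Sidt2, chr9:45746028-45746087, minus strand: tatagctcttgggctgggagaagaggcggg
Tagln, chr9:45738097-45738156, minus strand: ctttgaaggagacccagcccagcctctaca
AK081273, chr9:51430791-51430850, minus strand: attttgtctacgggacgaggctggcaccgc
The last lines are second probes of called genes, shown because they read another stretch of the same gene, and the probe of the mutated gene.
Ncam1, second probe, chr9:49313224-49313283, minus strand: aaagagacaaaaaggttaaacccacagcca
Cul5, second probe, chr9:53425327-53425386, minus strand: gcacacttgagaagacacgtgtgccagtgt
Sidt2, second probe, chr9:45747388-45747537, minus strand: gatatctggcacttcctgtcctccattgcc
Zbtb16, chr9:48462419-48462478, minus strand: tatttcttccgttctacaggaccttgctct

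*Zbtb16* gave the check of the genotype labels. Its processed signal, the intensity after background subtraction and dye normalization, was 433 and 546 in wild type and 172 and 211 in *Plzf* lu/lu on arrays 1 and 2. Both mutant samples lay below both wild type samples. A second, dim probe of the gene gave log2 ratios of lu/lu to wild type of -0.87 and -1.09. Of the markers of forebrain and midbrain, 11 of 12 were well above background in all 4 channels and the midbrain gene *En1* was not, and of the Hox genes of hindbrain and spinal cord 1 of 7 was. No gene spot was saturated. The small number of arrays limits the precision of each ratio. The dyes were not exchanged, so that a dye effect and the genotype cannot be told apart.

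A gene entered the comparison when the processed signal of its brightest probe was above 200 and its signal-to-noise ratio was 5 or more, each in both dyes on both arrays. Of the 204 genes, 60 passed (29.4%), against 28.6% of all genes on the arrays. Well above background in all channels were 131 of the 204 (64.2%), against 62.8% of all genes. The remaining 144 genes were too dim for the filter, and 4 of them (*Abcg4*, *Bud13*, *Cbl* and *Ube4a*) passed in at least 1 channel of each array. The values that follow are those of the 60 genes unless another number is given.

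Around *Zbtb16*, 4 of the 60 genes had more signal in *Plzf* lu/lu, past 1.3-fold on each of the arrays (6.67%), and 3 had less signal, again past 1.3-fold on each of the arrays (5%). Among all 10600 genes tested these shares were 2.58% and 0.736%. The higher genes were *Mcam*, *Ncam1*, *Cul5* and a long intergenic noncoding RNA (lincRNA), and the lower genes were *Sidt2*, *Tagln* and the transcript AK081273. Because these genes were chosen by their ratios, the separation of their signals described below is no further evidence of a difference. No gene of the region was past 1.3-fold upward on one array and downward on the other. With p-values adjusted by Benjamini-Hochberg across the whole table, limma called 0 of the 60 genes at an adjusted p under 0.05 in either direction, against 0.0283% higher and 0% lower of all genes. At an unadjusted p under 0.05, 9 genes were higher (15%) and 12 were lower (20%), against 15.7% and 12% of all genes. At an adjusted p under 0.1 in limma the numbers were 7 (11.7%) and 5 (8.33%), against 7.60% and 4.55%.

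The region as a whole did not lie to one side. The median of the mean log2 ratios was -0.04, with 0.02 on array 1 and -0.05 on array 2, against 0.01 for all genes tested. The ratio was above 0 in 29 of the 60 genes, and the values reached from -0.52 to 0.56. The median size of the log2 ratio regardless of sign was 0.15, against 0.13 for all genes, and both arrays gave the same sign for 45 of the 60 genes (75.0%, against 72.6%).

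**Figure D1:**
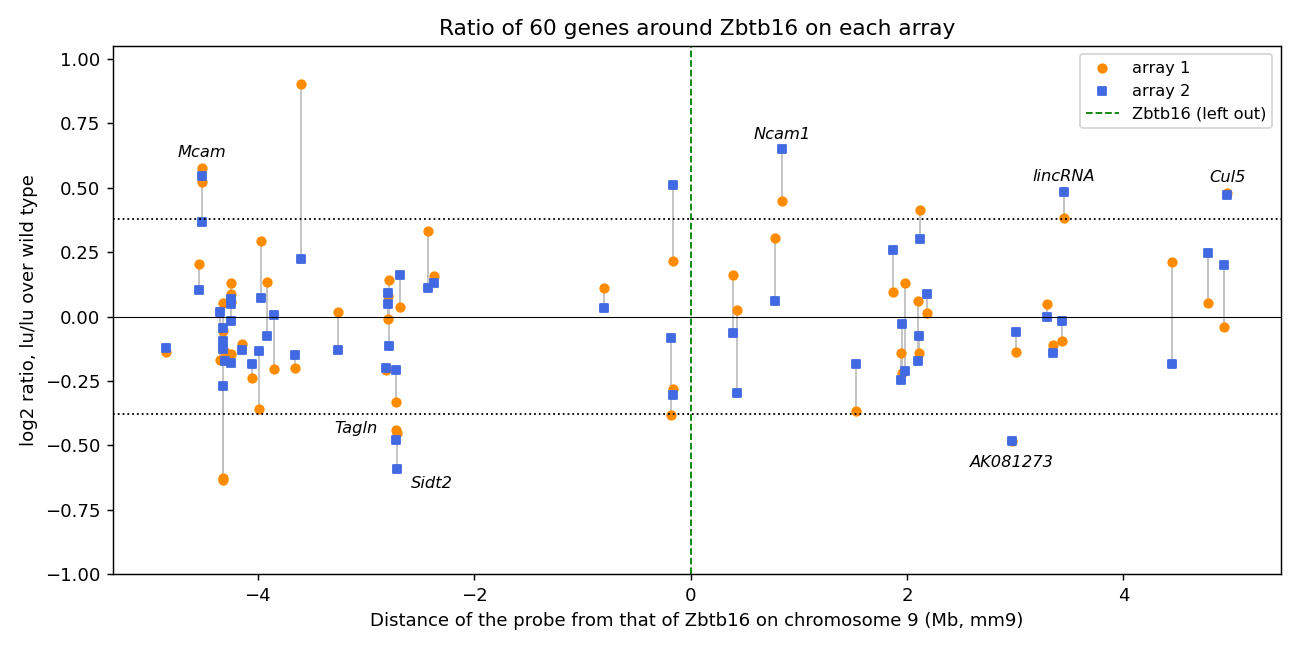
Log2 ratio (*Plzf* lu/lu over wild type) of each of the 60 genes on array 1 (orange circles) and array 2 (blue squares), joined by a line, against the distance of the probe from that of *Zbtb16* in Mb, with dotted lines at 1.3-fold and a dashed line at *Zbtb16*. The 7 genes beyond 1.3-fold on both arrays are named and lie at several distances on either side, from *Mcam* at -4.51 Mb to *Cul5* at 4.96 Mb.

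The called genes lay at several distances from the mutation, and were too few to show or exclude a pattern with distance. Within 1 Mb of *Zbtb16* lay 8 tested genes with a median log2 ratio of 0.06 (0.14 on array 1 and -0.02 on array 2). Of these, 1 was higher (12.5%) and 0 lower beyond 1.3-fold on both arrays, against 2.58% and 0.736% of all genes. Within 2.5 Mb lay 19 genes with a median of 0.05, again with 1 higher (5.26%) and 0 lower. The 41 genes farther away had a median of -0.05, with 3 higher and 3 lower (7.32% each). In steps of 1 Mb the median lay between -0.12, for 5 genes from 49.5 to 50.5 Mb, and 0.12, for 4 genes from 48.5 to 49.5 Mb. The step with the most genes, 18 from 43.5 to 44.5 Mb, had a median of -0.06 and 1 gene called, and the step from 46.5 to 47.5 Mb held no tested gene. All 3 lower genes came from the steps from 45.5 to 46.5 Mb (2 of 10 genes) and from 50.5 to 51.5 Mb (1 of 6 genes).

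The neighbouring stretches of the chromosome were close in median level. In the 10 Mb before the region, 32 genes had a median log2 ratio of 0.01 and none was called in either direction. In the 10 Mb after it, 58 genes had a median of -0.01, with 3 higher (5.17%) and 0 lower. Among all genes tested 2.58% were higher, and a share above this was also seen after the region but not before it. Neither stretch held a lower gene, against 5% of the region and 0.736% of all genes, and these counts are small. On the whole rest of chromosome 9, 480 genes had a median of 0.02, with 11 higher (2.29%) and 1 lower (0.208%). At the left edge, *Oaf*, the nearest tested gene outside, had log2 ratios of -0.28 and -0.09, and *Nectin1* (*Pvrl1* in the annotation), the first inside, had -0.14 and -0.12. At the right edge, *Cul5* was the last gene inside and *Cib2*, the nearest outside, had -0.10 and 0.06.

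The probes of 3 of the 60 genes hold a stretch of at least 10 alternating G and T bases, namely *Mcam* (20 bases), *Fdxacb1* (13 bases) and the lincRNA (12 bases). All 3 genes had ratios above 0 on both arrays, and *Mcam* and the lincRNA are 2 of the 4 higher genes. Among all genes tested, 118 (1.11%) had such a probe, and 97 of these (82.2%) were higher beyond 1.3-fold on both arrays and 0 were lower. Their median log2 ratio was 0.51, with 0.52 on array 1 and 0.49 on array 2, and 116 of the 118 were above 0. Over all 10600 genes, 97 of the 274 higher genes (35.4%) came from such probes. The median rose with the length of the stretch, from 0.00 for 9983 genes with at most 5 bases, to 0.11 for 455 genes with 6 or 7, 0.23 for 44 genes with 8 or 9, 0.45 for 38 genes with 10 to 13 and 0.53 for 80 genes with 14 or more. Where a gene had passing probes both with and without a stretch (21 genes, none of them in the region), the median was 0.56 over the probes with it and -0.06 over the others, and the probe with it was higher in 20 of 21. Stretches of alternating A and C, the complement of G and T, occurred in 39 genes, with a median of -0.08 and 0 called. Stretches of alternating A and T occurred in 11 genes, with a median of 0.01, 3 higher and 0 lower. In the region only the probe of *Mcam* held one, beside its stretch of G and T. The search was made on the probe strand and after the ratios had been seen.

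**Figure D2:**
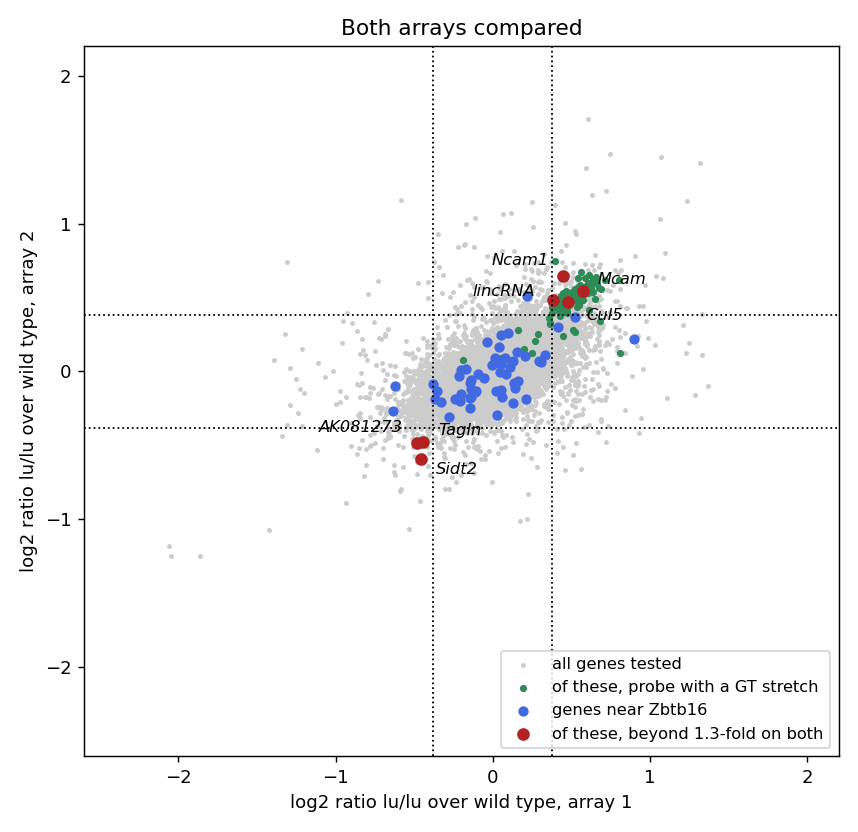
Log2 ratio (*Plzf* lu/lu over wild type) on array 2 against that on array 1 for the 10600 genes tested (grey), those whose probe holds a stretch of at least 10 alternating G and T bases (green), the genes around *Zbtb16* (blue) and those of them beyond 1.3-fold on both arrays (red, named), with dotted lines at 1.3-fold. The green points form a cloud near 0.5 on both axes, and *Mcam* lies inside it.

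Without the probes that hold such a stretch, 2 of 57 genes of the region were higher (3.51%) and 3 were lower (5.26%), against 1.69% and 0.744% of all 10482 genes read by other probes. *Mcam* and the lincRNA had no other probe. A dimmer probe of *Fdxacb1* without a stretch, with wild type signals of 144 and 140, was below the filter and gave -0.10 and -0.15, the opposite sign of the passing probe. The part of the stretch in these ratios was not tested further.

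Among genes of cell adhesion, *Mcam* (CD146), an immunoglobulin superfamily protein of the vessel wall, and *Ncam1*, the neural cell adhesion molecule, were higher. The signal of *Mcam* (NM_023061) was 5466 and 4866 in wild type and 8153 and 7101 in *Plzf* lu/lu. Both mutant samples lay above both wild type samples, with log2 ratios of 0.58 and 0.55 and a mean of 0.56 (SD 0.02, n = 2 arrays, adjusted p = 0.051 in limma). *Mcam* had no second probe, and its probe is the one with the longest stretch of G and T in the region. The transcript AK077774, read from the opposite strand by a probe 437 bases away, was also higher on both arrays, with log2 ratios of 0.52 and 0.37. Its signals were 488 and 491 in wild type and 701 and 632 in *Plzf* lu/lu, and it passed 1.3-fold on array 1 only. The GC content of its probe was 28.3%. With a curve of the ratio against probe GC content removed, its mean log2 ratio was 0.30 instead of 0.44.

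For *Ncam1* (NM_001113204), which marks neurons from their birth onward, the signal was 308 and 388 in wild type and 421 and 607 in *Plzf* lu/lu. Both mutant samples were above both wild type samples, and array 2 gave the larger ratio. The log2 ratios were 0.45 and 0.65, with a mean of 0.55 (SD 0.14, n = 2 arrays, adjusted p = 0.052 in limma). The other 3 probes of the gene well above background did not show this difference on both arrays. The second probe, with wild type signals of 232 and 252, gave -0.50 on array 1 and 0.03 on array 2, and the 2 dimmest of these gave means of 0.05 and -0.09. Of the further adhesion, channel and receptor genes, *Cadm1*, a synaptic adhesion molecule, had log2 ratios of 0.11 and 0.03, and *Bace1*, the beta-secretase, had -0.01 and 0.05.

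*Cul5* (NM_027807), the scaffold of a family of ubiquitin ligases, had a signal of 607 and 558 in wild type and 847 and 773 in *Plzf* lu/lu. The mutant samples lay above the wild type samples by nearly the same ratio on the arrays, 0.48 and 0.47 on the log2 scale (mean 0.48, SD 0.01, n = 2 arrays, adjusted p = 0.052 in limma). Its 2 other probes were dimmer and also above 0 on both arrays, with 0.55 and 0.19 for the brighter and 0.19 and 0.20 for the dimmer. Among the called genes with more than 1 probe, *Cul5* was the only one whose other probes well above background had the sign of the brightest on both arrays.

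The last of the higher genes is a lincRNA that the annotation places between 51905865 and 51911474 on the minus strand. Its signal was 286 and 243 in wild type and 373 and 340 in *Plzf* lu/lu, so that the dimmer mutant sample exceeded the brighter wild type sample. The log2 ratios were 0.38 and 0.48 (mean 0.43, SD 0.07, n = 2 arrays, adjusted p = 0.057 in limma), and array 1 lay just beyond 1.3-fold at a ratio of 1.303.

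Among the lower genes, *Sidt2* and *Tagln* are neighbours. *Sidt2* (NM_172257), a membrane protein of the lysosome, had a signal of 1043 and 1116 in wild type and 761 and 740 in *Plzf* lu/lu. Both mutant samples were below both wild type samples, with log2 ratios of -0.45 and -0.59 (mean -0.52, SD 0.10, n = 2 arrays, adjusted p = 0.052 in limma). Its other probes well above background, with wild type signals from 186 to 231, gave -0.08 and 0.01, and 0.05 and 0.00. The lower signal was therefore seen with 1 of the 3 probes well above background.

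*Tagln* (NM_011526), which encodes the actin-binding protein transgelin of smooth muscle, lies on the same strand with a probe 7871 bases from that of *Sidt2*. Its signal was 3477 and 3086 in wild type and 2561 and 2214 in *Plzf* lu/lu, again with both mutant samples below both wild type samples. The log2 ratios were -0.44 and -0.48 (mean -0.46, SD 0.03, n = 2 arrays, adjusted p = 0.054 in limma). *Pcsk7*, a proprotein convertase read from the opposite strand 524 bases away from *Tagln*, was below 0 on both arrays as well, with -0.33 and -0.21, short of 1.3-fold. The next tested genes on the 2 sides did not share this direction. *Rnf214*, before *Pcsk7*, had 0.14 and -0.11, and *Pafah1b2*, after *Sidt2*, had 0.04 and 0.16.

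AK081273, annotated as a cDNA clone from striatum, had a signal of 689 and 620 in wild type and 493 and 443 in *Plzf* lu/lu, and the mutant samples were below the wild type samples on both arrays. Its log2 ratio was -0.48 on each array (adjusted p = 0.052 in limma). The nearest passing probe of another gene, a probe of *Gm6981* on the opposite strand 1004 bases away, had -0.15 and -0.18. The annotation places the brightest probe of *Gm6981* elsewhere, at 51810404 on the minus strand, so that the position of this neighbour is uncertain.

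**Figure D3:**
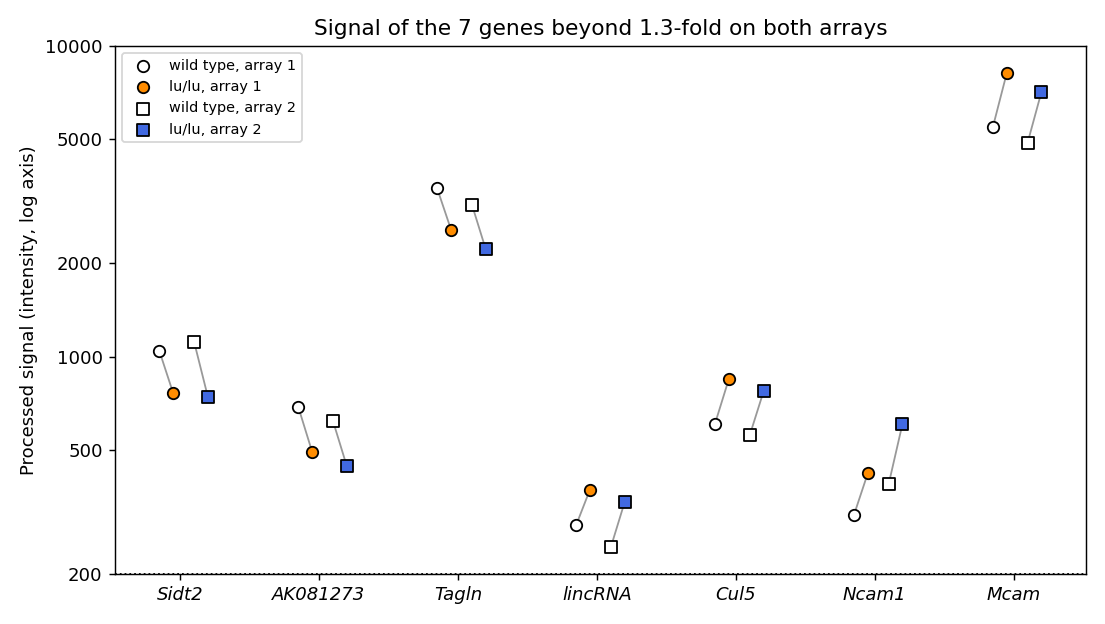
Processed signal (intensity, log axis) of the 7 genes beyond 1.3-fold on both arrays, with wild type as open and *Plzf* lu/lu as filled symbols, circles for array 1 and squares for array 2, the samples of an array joined by a line, and a dotted line at the minimum of 200. In none of the 7 genes do the wild type and mutant signals overlap, and in *Ncam1* the nearest signals are 388 in wild type and 421 in *Plzf* lu/lu. The genes were chosen for a ratio past 1.3-fold on each array, so that this separation is largely given by the choice.

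The calls of these genes depended on the processing. All 7 genes kept their direction under 8 other ways of processing both arrays, which was largely given in advance. The genes were chosen for ratios past 1.3-fold on both arrays. Only normexp with loess, normexp with centring and removal of the GC trend gave them new ratios. The other ways changed the filter, the averaging over probes or the rounding. With normexp background correction and centring on the passing genes, 2 genes were higher (3.33%, against 4.29% of all genes) and 3 lower (against 1.13%), since *Ncam1* (0.27 on array 1) and the lincRNA (0.21 and 0.34) fell short of 1.3-fold. With the GC trend of the ratios removed (a curve fitted to the ratio against probe GC content), 2 were higher (against 2.01% of all genes) and 1 was lower (1.67%, against 0.774%), and *Cul5*, *Ncam1*, *Sidt2* and AK081273 fell short on array 1. Across genes, the Spearman correlation of the mean log2 ratio with the GC content of the probe was -0.50 over the 60 genes and -0.33 over all 10600, and the median GC content was 43.3% and 41.7%. Without a filter, 11 of all 204 genes were higher and 11 lower (5.39% each), against 4.57% and 5.86% of all genes on the arrays. On array 1 alone, 7 genes were higher beyond 1.3-fold (11.7%, against 8.25% of all genes) and 6 lower (10%, against 5.58%). On array 2 alone, 5 were higher (8.33%, against 4.50%) and 3 lower (against 1.96%).

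**Figure D4:**
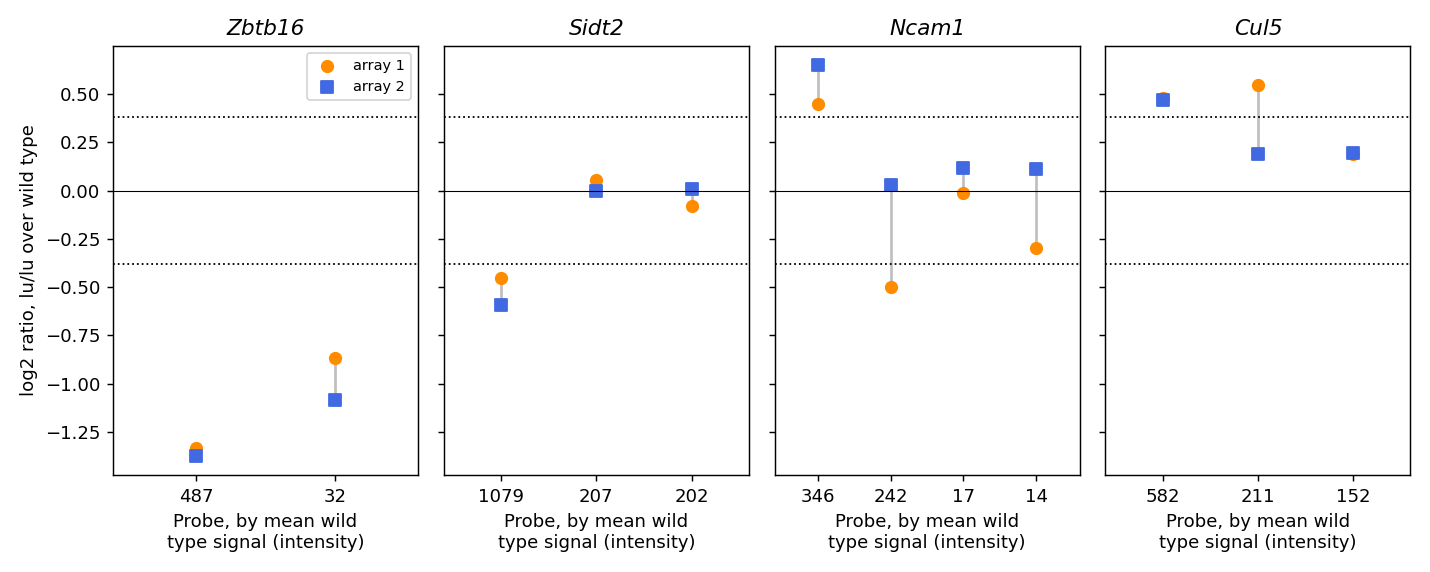
Log2 ratio (*Plzf* lu/lu over wild type) on array 1 (orange circles) and array 2 (blue squares) for each probe well above background of *Zbtb16* and of the called genes with more than 1 such probe, ordered by mean wild type signal (intensity, under each probe), with dotted lines at 1.3-fold. Both probes of *Zbtb16* and the 3 of *Cul5* lie on 1 side of 0, whereas *Sidt2* and *Ncam1* lie beyond 1.3-fold on both arrays only at the brightest probe.

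Probes of 1 gene can be compared more widely in the region. Of the 60 genes, 11 had at least 2 passing probes, and their mean log2 ratios spanned a median of 0.13 per gene, against 0.18 over 2166 such genes on the arrays. All probes had the same sign in 6 of the 11 (54.5%, against 52.3%). The widest span was that of *Ddx6*, an RNA helicase of cytoplasmic granules, at 0.23. Its brightest probe, with a GC content of 75.0%, gave -0.24 and -0.18, and its probe with 45.0% gave -0.11 and 0.15. *Sik3*, a kinase of the AMPK family, spanned 0.20, *Cadm1* and the ezrin relative *Rdx* (radixin) each 0.19, and the membrane ubiquitin ligase *Rnf26* 0.13.

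The genes nearest to the mutation were *Gm5617*, *Rbm7* and *Rexo2* on one side and *Usp28* and *Zw10* on the other. *Rbm7*, an RNA-binding subunit of a nuclear exosome complex, had a signal of 849 and 848 in wild type and 699 and 686 in *Plzf* lu/lu. Its log2 ratios were -0.28 and -0.31 (adjusted p = 0.091 in limma), short of 1.3-fold on both arrays, and the samples of the genotypes did not overlap. *Gm5617*, on the opposite strand 6513 bases away, had 1084 and 959 in wild type and 1259 and 1366 in *Plzf* lu/lu, with 0.22 and 0.51 (adjusted p = 0.095 in limma). Both genes lie at -0.16 Mb from the probe of *Zbtb16*, and their ratios were on opposite sides of 0.

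The other genes near the mutation had smaller or less even ratios. *Rexo2*, an exonuclease of short RNA, had -0.38 on array 1 and -0.08 on array 2. *Usp28*, a deubiquitinase, had 0.16 and -0.06, and *Zw10*, a kinetochore protein, had 0.02 and -0.30. Farther out, *Zpr1*, a zinc finger protein, had 0.16 and 0.13. *Ttc12*, needed for the assembly of motile cilia, had 0.31 and 0.06, and ENSMUST00000182240, a predicted gene, had -0.37 and -0.19. None of these was beyond 1.3-fold on both arrays.

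*Mpzl2*, an adhesion protein of epithelia, had the largest single ratio of the region, 0.90 on array 1 against 0.22 on array 2.

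Markers of other cell types differed between the samples as well, some by array and some in the same direction on both arrays. Of 10 erythroid markers, 10 were well above background in every channel, and their summed signal was 470295 and 195167 in wild type and 251754 and 238254 in *Plzf* lu/lu. The median log2 ratio of the 7 that passed was -1.07 on array 1 and 0.08 on array 2, so that the wild type sample of array 1 held the highest erythroid signal. For the endothelial list, 9 of 9 were well above background. The sums were 5125 and 5700 in wild type and 4331 and 4022 in *Plzf* lu/lu. The 3 that passed had medians of -0.28 and -0.68, against 0.58 and 0.55 for *Mcam*. All 3 were lower on both arrays, and 1 was so beyond 1.3-fold, against 0.736% of all genes. For mesenchyme and smooth muscle, 9 of 9 passed, with sums of 21274 and 17406 in wild type and 20695 and 15964 in *Plzf* lu/lu and medians of 0.07 and -0.21. In that list 4 genes were lower on both arrays and 3 were higher on both, so that it had no common direction. Among the lower ones *Acta2*, the actin of smooth muscle, had -0.39 and -0.21, beside -0.44 and -0.48 for *Tagln*. The forebrain and midbrain list had sums of 25845 and 23644 in wild type and 26226 and 33869 in *Plzf* lu/lu. Its medians were 0.38 and 0.47 over 10 passing genes, beside 0.45 and 0.65 for *Ncam1*. Of these 10 genes, 6 were higher on both arrays, 0 were lower on both and the rest differed in sign between the arrays. Beyond 1.3-fold on both arrays 4 were higher, against 2.58% of all genes. The part of these cell types in the ratios of the region was not tested, and in whole tissue fewer cells of a type and less RNA per cell cannot be told apart.

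**Figure D5:**
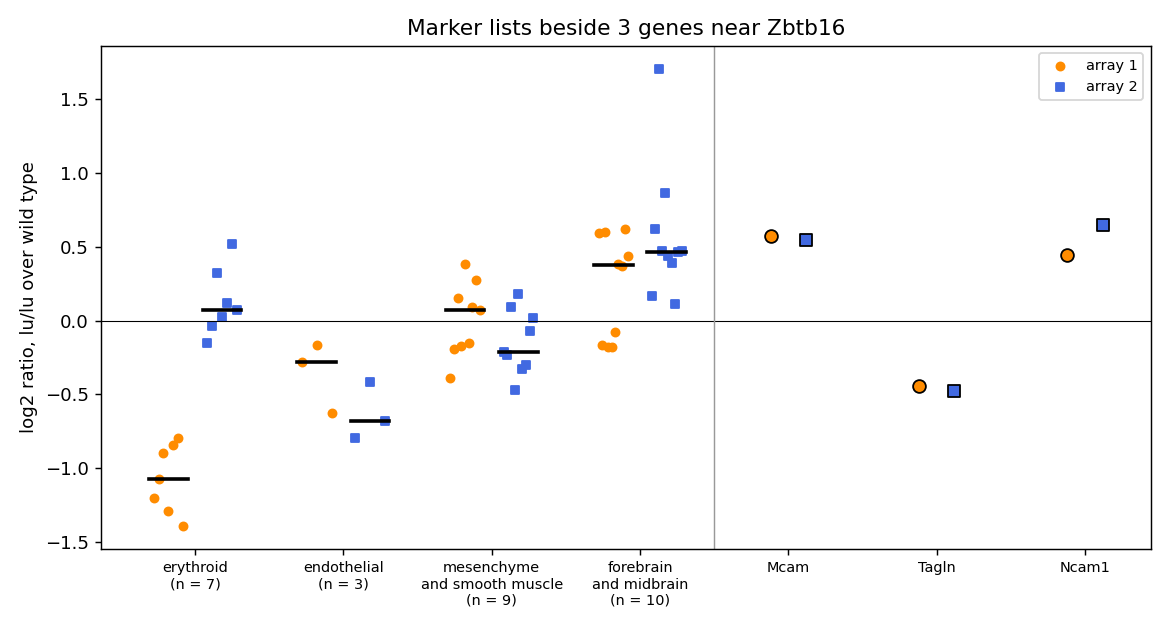
Log2 ratio (*Plzf* lu/lu over wild type) on array 1 (orange) and array 2 (blue) of the passing genes of 4 marker lists, with black bars at the medians, and of *Mcam*, *Tagln* and *Ncam1*. The erythroid medians are -1.07 and 0.08 on arrays 1 and 2. *Mcam*, *Tagln* and *Ncam1* each lie on 1 side of 0, as their choice for ratios past 1.3-fold on both arrays requires.

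By function, the tested genes fell into 8 lists, which held 41 of the 60. Of the 14 genes listed as neuronal adhesion, channel and receptor genes on the arrays, 6 passed, 2 were higher (*Mcam* and *Ncam1*) and 0 lower. The list counts *Mcam* although it is described above as a protein of the vessel wall. The probe of *Mcam* holds a stretch of G and T, and the other probes of *Ncam1* did not show the difference on both arrays. The median log2 ratio of the list was 0.05. The dopamine receptor *Drd2*, at signals between 39.3 and 56.7, and the adhesion protein *Thy1*, not well above background, were among those too dim. Of 14 genes of chromatin, DNA damage and transcription, 10 passed and none was called, with a median of -0.07. In that list *Kmt2a*, a histone H3 methyltransferase, had -0.20 and 0.01, the histone variant *H2ax* had -0.05 and -0.04, and *Atm*, the kinase of the DNA damage response, had 0.05 and 0.25. The median of all genes tested was 0.01, with 2.58% of them higher and 0.736% lower beyond 1.3-fold on both arrays. The lists hold too few genes for their shares to be set against these.

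Of 7 ubiquitin genes, 4 passed, with *Cul5* higher and a median of 0.10. Of 8 mitochondrial genes, 6 passed with a median of -0.01 and none called. *Sdhd*, a subunit of succinate dehydrogenase, had -0.14 and -0.25, and *Timm8b*, a chaperone of mitochondrial import, had -0.22 and -0.03. *Fdxacb1*, counted in the same list, had 0.41 and 0.30 at signals of 480 and 487 in wild type and 640 and 600 in *Plzf* lu/lu, and is read by a probe with a stretch of G and T, whereas its probe without one had -0.10 and -0.15. Of 11 secretory pathway genes, 9 passed, with *Sidt2* lower and a median of 0.03. Of 10 kinase, phosphatase and cytoskeletal genes, 5 passed, with *Tagln* lower and a median of -0.06. Of 10 genes listed as T cell and leukocyte genes, 2 passed (*Cd3e* and *Mpzl2*, the latter described above as an epithelial protein) and neither was called. None of the 4 apolipoprotein genes passed. These lists, too, are small beside the 2.58% higher and 0.736% lower of all genes, and 1 called gene in a list says little about the list.

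With the deposited normalization the brightest genes of the region were close to 0. They were ENSMUST00000119876, a pseudogene of *Rps25* whose probe may share signal with that gene, at 0.09 and -0.02, NAP114480-1 at -0.14 and -0.06, the transcribed pseudogene *Gm6981* at -0.11 and -0.14, the predicted gene ENSMUST00000182691 at -0.21 and -0.20, and *Timm8b*. Their wild type signals lay between 15110 and 43167. With normexp and centring the mean log2 ratio of ENSMUST00000119876 was 0.38 instead of 0.04 (adjusted p = 0.029 in limma). Under the same setting NAP114480-1 and *Gm6981* turned from -0.10 to 0.17 and from -0.13 to 0.15, and ENSMUST00000182691 moved from -0.20 to 0.01, so that the sign of these bright genes depended on the normalization.

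Neighbouring genes were compared in order of position. Over the 59 pairs of adjacent genes in the region, the median difference in mean log2 ratio was 0.18, against 0.19 over 10525 adjacent pairs on all chromosomes. The sign was the same in 36 of the 59 pairs (61.0%), against 50.9% of all pairs, and the Pearson correlation across pairs was 0.19, against 0.04. Pairs share genes, arrays and in part probe composition, so that these values describe the region and carry no test.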

How the data were processed

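RNA of E10.5 forebrain and midbrain was hybridized to 2 Agilent SurePrint G3 arrays. The authors scanned the arrays and ran Feature Extraction 10.7.3.1 (protocol GE2_107_Sep09), which removed background signal and then balanced both dyes of an array by LOWESS on rank-consistent spots. The deposited values are intensity, as processed and as raw spot and background signal, and a second deposited table holds the log2 ratio of Cy5 to Cy3. Probe positions were read from the annotation in the files (mm9), and whether a probe lies in an exon or a UTR was not analysed here.

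After removal of controls and outliers, repeated spots were averaged as log2 values and a gene was represented by its brightest probe. Ratios are *Plzf* lu/lu over wild type, and a call needed 1.3-fold on each array. An intercept model was fitted by limma (version 3.58.1, R version 4.3.3) with eBayes, and p-values of the 10600 genes were adjusted by Benjamini-Hochberg. There was 1 residual degree of freedom, so that the variance is largely that shared by all genes. The samples of an array form a pair by hybridization, and the main fit uses this pairing. Tables and plots were made with Python 3.11.15, pandas 2.3.3, numpy 2.4.6, matplotlib 3.10.9 and the R package data.table (version 1.17.8). The fit was tested on simulated data.

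Named genes are those beyond 1.3-fold on both arrays, the 5 highest and 5 lowest by the ratio nearer to 1, the 5 nearest to *Zbtb16* on each side, the 5 brightest, those at the edges, the 5 whose probes differ most and members of 8 functional lists. A gene that this rule names is not reported here. The region, these lists and the 7 marker lists were chosen with earlier results of these data known. Symbols were set against RefSeq (GRCm38.p6) by accession, with 46 of the 60 genes matched and 2 symbols updated. Alternatives were normexp (offset 50) with loess or with centring, the deposited log2 table, 3 other filters, the mean over probes, each probe, removal of the GC trend (lowess, span 0.67), eBayes with trend, no pairing, 1.5-fold, a window from 46 to 51 Mb and each array alone. Leaving out probes with a stretch of at least 10 alternating G and T bases was chosen after seeing the data.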

Additional observations from a re-analysis of the deposited data

How the results depend on the processing

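The count of higher genes around *Zbtb16* was 4 and that of lower genes 3 with the deposited normalization. Normexp with loess gave 5 and 3, and the deposited log2 table, the filter in 1 channel of each array, the mean over probes and each passing probe gave 4 and 3. With normexp and centring 2 genes were higher (3.33%, against 4.29%), with spots well above background 7 were higher (5.34%, against 2.52%), without a filter 11 were higher and 11 lower (5.39% each, close to the 4.57% and 5.86% of all genes), with the GC trend removed 2 were higher and 1 lower, without probes that hold a stretch of G and T 2 were higher, beyond 1.5-fold 0 were higher and 0 lower, and from 46 to 51 Mb 1 was higher and 0 lower. The last 2 settings count fewer genes by construction. Leaving out 1 array gave 5 to 7 higher and 3 to 6 lower genes. In limma, 0 genes were called in either direction in the main fit, also without the pairing by array (no replicate block), against 5 higher and 6 lower with normexp and centring (9.14% and 5.14% of all genes), 3 and 2 with each passing probe (1.35% and 0.417%), 5 and 4 with the GC trend removed (4.16% and 2.51%) and 3 and 3 with eBayes with trend (2.76% and 0.943%). The causes were not tested. The lowest adjusted p of the 7 called genes over these alternatives lay between 0.00978 (*Mcam*) and 0.0348 (*Ncam1*) in limma, and the highest between 0.524 and 0.538 without a filter. The median log2 ratio of -0.04 moved to 0.012 with spots well above background and to 0.048 from 46 to 51 Mb, and lay between -0.052 and 0.021 on single arrays. No mean of a called gene changed sign, which is largely given by their choice for ratios past 1.3-fold. Of 21 other named genes, most of them nearer to 0, 6 changed sign under at least 1 of these settings of both arrays. With normexp and centring 4 did so. These counts therefore do not compare the stability of the 2 groups of genes. With 2 arrays, 1 dye orientation and no second probe for *Mcam*, *Tagln*, AK081273 and the lincRNA, the precision of single genes is limited, and dim genes below a signal of 200 were not tested.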

Other observations

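Of the 71 genes of the region that were below the filter but well above background in all channels, 4 were beyond 1.3-fold on both arrays (5.63%), against 715 of 12683 such genes on the arrays (5.64%). The deubiquitinase *Usp2* had signals of 51.4 and 53.3 in wild type and 88.7 and 75.3 in *Plzf* lu/lu, with log2 ratios of 0.79 and 0.50. Its other probe, at wild type signals of 33.5 and 33.6, gave -0.74 and -0.32. The transcript *C030014I23Rik* had 0.80 and 0.43, and *C130081A10Rik* had 0.71 and 0.42. *Apoa4*, an apolipoprotein of intestine and liver, was lower, with 31.3 and 27.2 in wild type, 18.1 and 19.3 in *Plzf* lu/lu and log2 ratios of -0.79 and -0.49.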
